A study of Setaria italica with 18 samples.

Results

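Genes of foxtail millet (Setaria italica) annotated as enzymes of abscisic acid (ABA) synthesis and breakdown were examined in leaves under saline-alkali stress. They were taken as the rows of the expression table described as 9-cis-epoxycarotenoid dioxygenase (NCED), ABA 8'-hydroxylase, zeaxanthin epoxidase (ZEP) or abscisic-aldehyde oxidase. The choice gave 13 of 29108 genes: 4 NCED genes, 4 ABA 8'-hydroxylase genes and 5 ZEP genes. The phrase abscisic-aldehyde oxidase was found in 0 descriptions. The identifiers place the 13 genes on chromosomes 1, 2, 3, 6, 7, 8 and 9.

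The salt-tolerant variety JK3 and the salt-sensitive variety B175 were compared. Seedlings received 75% artificial seawater, and the second and the third leaf were taken after 0, 12 and 24 h, giving the groups J0, J12 and J24 for JK3 and B0, B12 and B24 for B175. Each group had 3 biological replicates, 18 libraries in all. No allele, transgene or other agent is named for any group, and each variety stands for tolerance or sensitivity with 1 line. Day and night lasted 12 h each, and the clock times of treatment and harvest are not given. If all plants were treated at the same hour, leaves at 12 h came from the other phase of the day than leaves at 0 and 24 h. No water-treated leaves at 12 or 24 h were analysed here, and treatment time and time of day therefore cannot be told apart in any comparison of times.

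ABA is the plant hormone that closes stomata and turns on protective genes when water is short or salt is high. It is made from carotenoids: ZEP oxidises zeaxanthin to violaxanthin in the chloroplast, NCED cuts 9-cis-epoxycarotenoids to xanthoxin in the step usually regarded as rate-limiting, and xanthoxin becomes ABA through abscisic aldehyde. The 8'-hydroxylases, cytochrome P450 enzymes of the CYP707A family, start the main route of ABA breakdown, so that the hormone level depends on both ends of the pathway. ABA itself was not measured.

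Expression was given as FPKM, fragments of a gene scaled by its length and by the fragment total of the library. Libraries held between 34738627 and 38798886 fragments, and a gene with no reads in a library was kept at 0 FPKM. Differences were tested with limma on log2(FPKM + 1) over 23824 genes with a mean of at least 0.1 FPKM, and all 13 genes were among them. Genes count as called when the log2 fold change exceeded 1 in either direction and the Benjamini-Hochberg adjusted p was under 0.05. All fold changes refer to log2(FPKM + 1), where the change of low genes is understated, and each ± beside one is the standard error of the fit. In bulk leaf tissue, fewer cells of a type and less RNA per cell cannot be told apart.

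Some libraries stood apart. Replicate 2 of B24 had the lowest correlation with its group (mean r = 0.955), and 25.9% of its fragments lay in its 100 most abundant genes, against 20.6% and 21.1% in the other B24 libraries. Replicate 2 of J0 had a mean r of 0.975 with its group, the lowest in JK3. Leaf markers were abundant: the 14 genes of chlorophyll a-b binding proteins summed to 1429 to 26481 FPKM, the 6 genes of phosphoenolpyruvate carboxylase to 786 to 8594 FPKM, and the 5 genes of the Rubisco small subunit to 352 to 5459 FPKM. The 3 genes of the root Casparian strip membrane proteins summed to 0 to 1.18 FPKM. The 6 genes matched as seed storage proteins summed to 29.1 to 106 FPKM and the 19 genes with pollen in their description to 44.9 to 513 FPKM, so neither list was at 0 in leaves.

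At 12 h, NCED1, the NCED gene with the highest mean over the 18 libraries, and ZEP (Seita.7G116400) were lower than at 0 h in both varieties, and the breakdown genes CYP707A5 and CYP707A4 were higher. Of the 13 genes, 8 were called in J12 vs J0, 3 higher and 5 lower, and 31.6% of all tested genes were called in this comparison (24% higher and 7.67% lower). In B12 vs B0, 9 were called, 4 higher and 5 lower, against 37.8% of all tested genes (28% higher and 9.81% lower). The 4 genes NCED1, ZEP (Seita.7G116400), CYP707A7 (Seita.2G229900) and Seita.8G007800 were called lower at 12 h in both varieties, and CYP707A5 and CYP707A4 were called higher in both. The median log2 fold change was 0.19 over the 13 genes and 0.37 over all genes tested in J12 vs J0, and 0.01 over the 13 genes and 0.43 over all genes tested in B12 vs B0. With libraries rescaled by median ratios, which brought the medians of all genes to 0.01 in both comparisons, the split was 2 higher and 6 lower in J12 vs J0, against 12.7% and 12.4% of all tested genes. In B12 vs B0 it was then 2 higher and 5 lower, against 15.3% and 16% of all tested genes.

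Of the genes called lower at 12 h, NCED1 alone was also called lower at 24 h, in both varieties, and NCED4 had its highest mean at 24 h. In J24 vs J0, 3 of the 13 genes were called, 2 higher and 1 lower, against 7.42% of all tested genes (5.36% higher and 2.06% lower). In B24 vs B0, 6 were called, 5 higher and 1 lower, against 16.2% of all tested genes (10.2% higher and 6.02% lower). The median log2 fold change of the 13 genes was 0.23 in J24 vs J0 and 0.13 in B24 vs B0, against 0.03 and 0.08 over all genes tested. The J24 vs J0 count was 5 without replicate 2 of J0 and 2 without replicate 3 of J0 or without any 1 library of J24. The B24 vs B0 count was 8 without replicate 2 of B24.

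Between 12 and 24 h, 7 of the 13 genes were called in J24 vs J12, 4 higher and 3 lower, against 26% of all tested genes (7.30% higher and 18.7% lower). In B24 vs B12, 4 were called, 3 higher and 1 lower, against 26.6% of all tested genes (7.86% higher and 18.8% lower). CYP707A7 (Seita.2G229900), NCED5 and ZEP (Seita.7G116400) were called higher and CYP707A5 lower in both varieties. The medians of all genes tested were -0.34 in J24 vs J12 and -0.31 in B24 vs B12, and those of the 13 genes 0.68 and 0.63. With median-ratio scaling the split was 7 higher and 2 lower in J24 vs J12, against 11.3% and 9.60% of all tested genes, and 6 higher and 1 lower in B24 vs B12, against 11.5% and 10.3%.

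**Figure D1:**
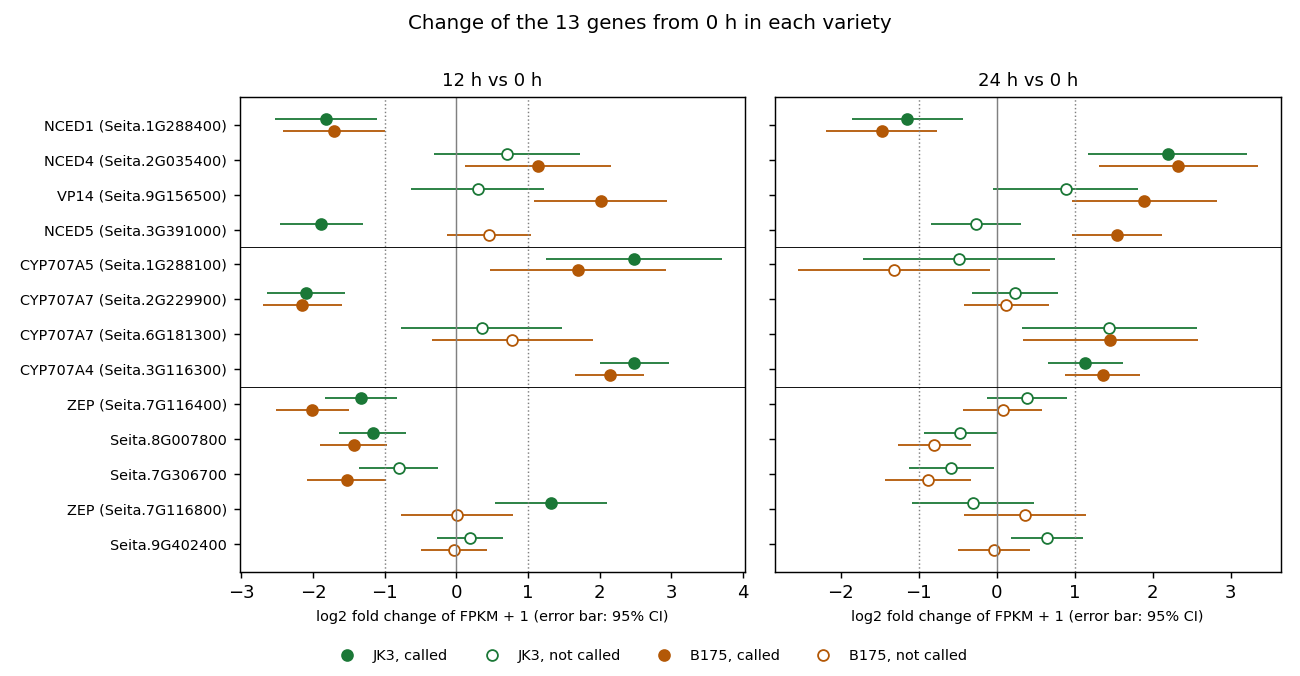
Log2 fold change of FPKM + 1 of the 13 genes at 12 h vs 0 h (left) and at 24 h vs 0 h (right), for JK3 (green) and B175 (orange). Filled points were called, error bars are 95% confidence intervals and dotted lines mark 1 and -1; at 12 h NCED5 lies at -1.89 in JK3 and at 0.46 in B175.

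The summed level of the 4 NCED genes was 197 ± 70.9 FPKM in J0, 95.6 ± 18.0 FPKM in J12 and 221 ± 25.2 FPKM in J24 (SD, n = 3). In B175 it was 132 ± 19.0 FPKM in B0, 75.5 ± 15.2 FPKM in B12 and 118 ± 33.0 FPKM in B24. The sum in both varieties was thus lowest at 12 h, and no library of J12 or B12 reached a library of the same variety at 0 h. Among all tested genes, 60.1% had no overlap between J12 and J0 and 68.8% had none between B12 and B0, in either direction. The sum hid a change of the leading gene. NCED1 made 69.9% of it on average in J0, 38.6% in J12 and 28.4% in J24, while the share of NCED4 was 16.6%, 47.0% and 57.7%. In B175 the share of NCED1 was 89.2% in B0, 48.3% in B12 and 37.0% in B24, and that of NCED4 was 7.55%, 31.1% and 46.3%.

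The summed level of the 4 ABA 8'-hydroxylase genes was 39.3 ± 27.2 FPKM in J0, 129 ± 15.5 FPKM in J12 and 34.1 ± 11.2 FPKM in J24. In B175 it was 31.7 ± 9.95 FPKM in B0, 67.4 ± 1.44 FPKM in B12 and 26.0 ± 3.49 FPKM in B24. Every library at 12 h lay above every library of its variety at 0 and 24 h. All 3 libraries of J12, from 118 to 147 FPKM, also lay above all 3 of B12, from 65.8 to 68.5 FPKM. Among all tested genes, 33.6% had no overlap between J12 and B12, in either direction.

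Set against each other, the NCED sum was 2.65 to 9.71 times the hydroxylase sum in single libraries at 0 and 24 h, and 0.655 to 1.35 times at 12 h. The ratio of the sums was 8.27, 2.75 and 8.19 in the J0 libraries, 0.772, 0.787 and 0.655 in J12, and 9.71, 6.32 and 4.86 in J24. In B175 it was 6.48, 2.65 and 4.51 in B0, 1.10, 0.904 and 1.35 in B12, and 3.89, 4.33 and 5.21 in B24. The ratio is one of transcript levels, and it does not depend on the scaling between libraries. All 3 ratios of J12 were below all 3 of B12.

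The summed level of the 5 ZEP genes was 251 ± 32.5 FPKM in J0, 109 ± 7.11 FPKM in J12 and 266 ± 39.0 FPKM in J24. In B175 it was 427 ± 21.7 FPKM in B0, 127 ± 19.3 FPKM in B12 and 376 ± 148 FPKM in B24. The wide spread in B24 came with replicate 2, at 545 FPKM, against 273 and 310 FPKM in the other libraries. These sums were not tested, and the tests below are those of single genes.

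**Figure D2:**
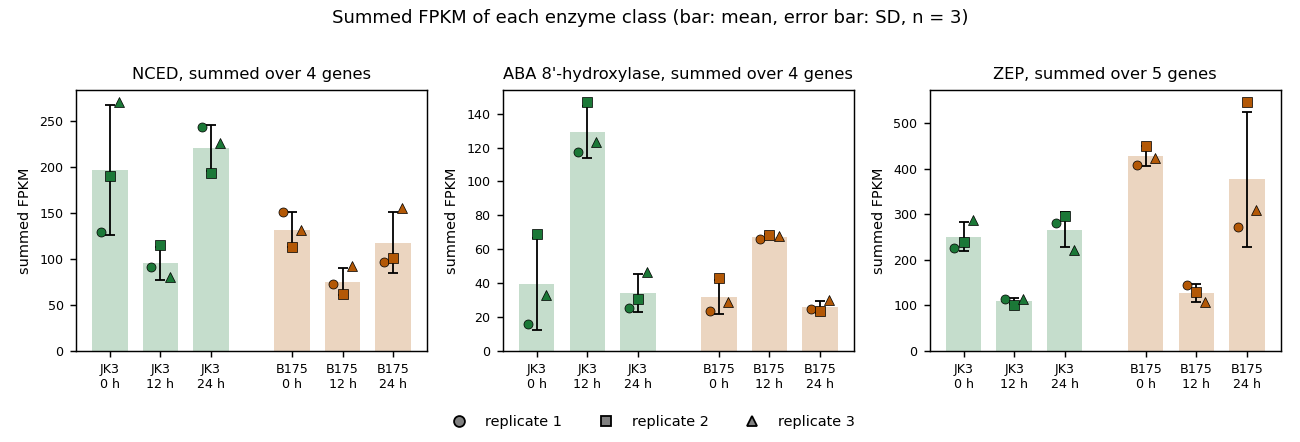
Summed FPKM of the 4 NCED, 4 ABA 8'-hydroxylase and 5 ZEP genes in each group, JK3 in green and B175 in orange. Bars are means, error bars SD of 3 libraries and points single libraries; the hydroxylase sum peaked at 12 h (129 FPKM in J12 and 67.4 FPKM in B12), where the sums of the other classes were lowest.

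Among the NCED genes, NCED1 (Seita.1G288400) had the highest mean over the 18 libraries, 72.4 FPKM. NCED1 in JK3 had 94.2, 101 and 227 FPKM in J0, 40.2, 49.2 and 23.4 FPKM in J12, and 37.9, 79.3 and 64.8 FPKM in J24. NCED1 in B175 had 141, 97.0 and 117 FPKM in B0, 36.4, 37.4 and 31.5 FPKM in B12, and 32.9, 48.6 and 44.6 FPKM in B24. In both varieties all libraries at 12 and 24 h lay below all libraries at 0 h, and replicate 3 of J0 was far above the rest of its group. NCED1 fell by 1.82 ± 0.33 on the log2 scale in J12 vs J0 (limma, adjusted p = 0.000249) and by 1.71 ± 0.33 in B12 vs B0 (adjusted p = 0.000338). It was still lower at 24 h, at -1.14 ± 0.33 in J24 vs J0 (limma, adjusted p = 0.0295) and at -1.47 ± 0.33 in B24 vs B0 (adjusted p = 0.00322). The call in J24 vs J0 was lost without replicate 3 of J0 (-0.74, adjusted p = 0.15 by limma), without replicate 1 of J24 (-0.84, adjusted p = 0.123) and without replicate 3 of J24 (-1.22, adjusted p = 0.0677).

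NCED4 (Seita.2G035400), with a mean of 49.4 FPKM, went the other way. NCED4 in JK3 had 15.2, 56.9 and 21.6 FPKM in J0, 37.0, 52.8 and 44.0 FPKM in J12, and 162, 88.9 and 138 FPKM in J24. NCED4 in B175 had 6.84, 11.5 and 10.5 FPKM in B0, 22.6, 11.5 and 40.2 FPKM in B12, and 50.1, 29.6 and 89.8 FPKM in B24. The 24 h libraries lay above all 0 h libraries of their variety, and the 12 h libraries lay between or overlapped with the neighbouring times. NCED4 rose by 2.19 ± 0.48 in J24 vs J0 (limma, adjusted p = 0.00717) and by 2.33 ± 0.48 in B24 vs B0 (adjusted p = 0.00163), and both calls held in all alternatives tried. The difference in J24 vs J12 was 1.49 ± 0.48 (limma, adjusted p = 0.0171), and its call was lost without replicate 1 of J12 (adjusted p = 0.0574) or replicate 1 of J24 (adjusted p = 0.065). At 12 h the difference was 1.14 ± 0.48 in B12 vs B0 (limma, adjusted p = 0.0492), a call lost in 9 of 12 alternatives, with adjusted p up to 0.386. In J12 vs J0 it was 0.70 ± 0.48 (limma, adjusted p = 0.233), and it was called without replicate 2 of J0.

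VP14 (Seita.9G156500), named after viviparous14 of maize, from which an NCED was first cloned, had a mean of 10.8 FPKM. VP14 in JK3 had 4.99, 18.7 and 5.13 FPKM in J0, 10.4, 10.2 and 9.63 FPKM in J12, and 34.1, 12.7 and 8.53 FPKM in J24. VP14 in B175 had 2.15, 2.38 and 2.48 FPKM in B0, 11.8, 10.4 and 15.7 FPKM in B12, and 8.58, 11.5 and 14.8 FPKM in B24. In B175 the 0 h libraries were far below all later ones, while in JK3 the groups overlapped. VP14 rose by 2.01 ± 0.44 in B12 vs B0 (limma, adjusted p = 0.000836) and by 1.89 ± 0.44 in B24 vs B0 (adjusted p = 0.00363). The differences in JK3 were 0.30 ± 0.44 in J12 vs J0 (limma, adjusted p = 0.596) and 0.89 ± 0.44 in J24 vs J0 (adjusted p = 0.18), and the one at 24 h was called without replicate 2 of J0. The response of VP14 was not shown to differ between the varieties: the interaction was -1.71 at 12 h, with a 95% confidence interval from -3.02 to -0.40 (limma, adjusted p = 0.123), and -1.0 at 24 h, with an interval from -2.32 to 0.31 (adjusted p = 0.47).

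NCED5 (Seita.3G391000) was the gene whose course differed between the varieties. NCED5 in JK3 had 14.9, 13.4 and 17 FPKM in J0, 3.19, 3.33 and 3.52 FPKM in J12, and 9.67, 13 and 15.1 FPKM in J24. NCED5 in B175 had 1.26, 2.53 and 1.77 FPKM in B0, 1.86, 2.64 and 4.48 FPKM in B12, and 4.99, 11 and 6.61 FPKM in B24. JK3 thus started high, dipped at 12 h in all 3 libraries and returned, while B175 started low and was above all its 0 h libraries at 24 h. NCED5 fell by 1.89 ± 0.27 in J12 vs J0 (limma, adjusted p = 2.63e-05) and was higher by 1.62 ± 0.27 in J24 vs J12 (adjusted p = 0.000141). In B175 the difference was 0.46 ± 0.27 in B12 vs B0 (limma, adjusted p = 0.162), 1.54 ± 0.27 in B24 vs B0 (adjusted p = 0.000509) and 1.09 ± 0.27 in B24 vs B12 (adjusted p = 0.00363). The last call was lost without replicate 1 of B12 (0.87) or replicate 2 of B24 (0.81), where the fold change was under the limit.

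The interaction of variety and time gave the change from 0 h in JK3 minus that in B175, called at an adjusted p under 0.05 alone. At 12 h it was called for 1 of the 13 genes, NCED5, and for 5.87% of all tested genes. Its value was -2.34 ± 0.39, with a 95% confidence interval from -3.16 to -1.52 (limma, adjusted p = 0.00247), and it was called in all 18 alternatives. At 24 h NCED5 was again the 1 gene called, against 2.52% of all tested genes, at -1.81 ± 0.39, with an interval from -2.63 to -0.98 (limma, adjusted p = 0.0201). The call at 24 h was lost without replicate 3 of J0 (adjusted p = 0.0538), replicate 1 of J24 (0.0512), replicate 1 of B0 (0.0528) or replicate 3 of B0 (0.0549). For the other 12 genes the adjusted p was 0.123 or higher at 12 h and 0.29 or higher at 24 h, and an interaction of 1 or more lay inside many of the intervals, as for CYP707A5 at 12 h (0.79, interval from -0.95 to 2.53).

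**Figure D3:**
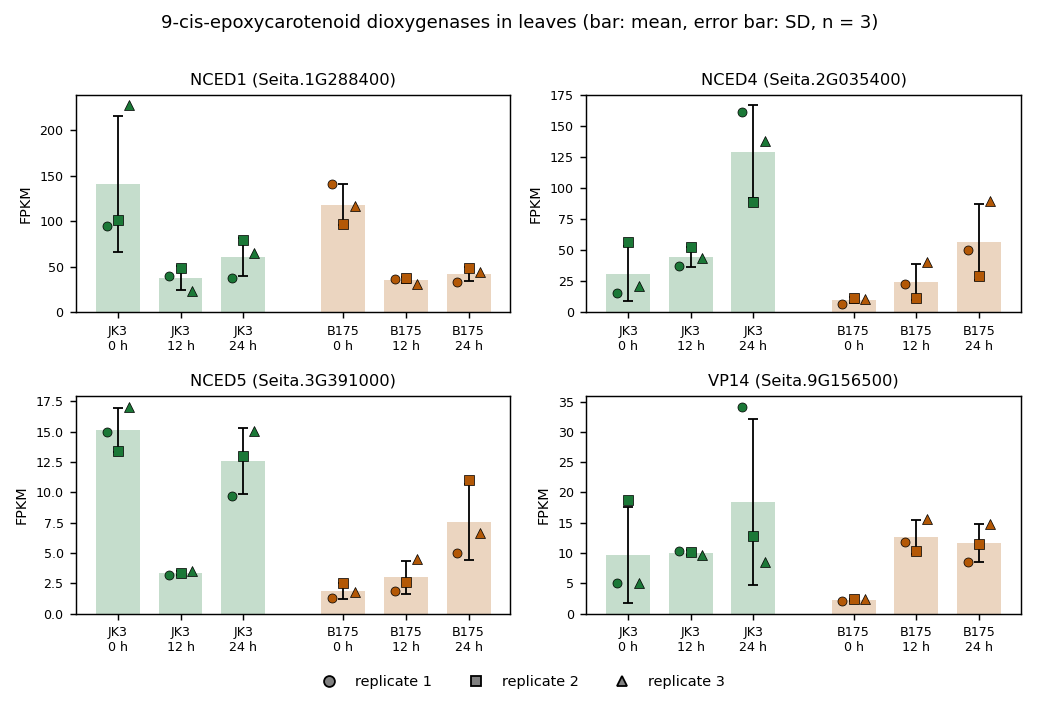
FPKM of the 4 NCED genes in each group, JK3 in green and B175 in orange; each panel has its own scale from 0. Bars are means, error bars SD of 3 libraries and points single libraries; NCED5 averaged 15.1 FPKM in J0 and 1.85 FPKM in B0.

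Of the ABA 8'-hydroxylases, CYP707A5 (Seita.1G288100) was the most abundant, with a mean of 41.6 FPKM. CYP707A5 in JK3 had 6.18, 57.7 and 22.0 FPKM in J0, 108, 137 and 112 FPKM in J12, and 8.64, 15.9 and 20.8 FPKM in J24. CYP707A5 in B175 had 10.9, 29.5 and 17.5 FPKM in B0, 58.2, 60.8 and 60.9 FPKM in B12, and 2.81, 10.2 and 9.08 FPKM in B24. In each variety the 12 h libraries were above all others, with replicate 2 of J0 well above its group. CYP707A5 rose by 2.48 ± 0.58 in J12 vs J0 (limma, adjusted p = 0.0018) and by 1.69 ± 0.58 in B12 vs B0 (adjusted p = 0.0186). It then fell by 2.97 ± 0.58 in J24 vs J12 (limma, adjusted p = 0.000518) and by 3.01 ± 0.58 in B24 vs B12 (adjusted p = 0.000444). The call in B12 vs B0 was lost with median-ratio scaling (1.05, adjusted p = 0.163 by limma) and without replicate 1 of B0 (1.36, adjusted p = 0.0832). It supplied 92.1% of the hydroxylase sum in J12 and 89.0% in B12, on average, against 43.6% in J24 and 28.6% in B24.

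CYP707A4 (Seita.3G116300) also peaked at 12 h, at a far lower level, with a mean of 2.32 FPKM. CYP707A4 in JK3 had 0.34, 0.14 and 0.21 FPKM in J0, 5.32, 6.96 and 5.41 FPKM in J12, and 1.04, 2.34 and 1.87 FPKM in J24. CYP707A4 in B175 had 0.05, 0.17 and 0.13 FPKM in B0, 3.87, 4.70 and 3.26 FPKM in B12, and 2.94, 1.08 and 1.85 FPKM in B24. The groups at 0 h, 24 h and 12 h did not overlap within either variety. The 0 h values rest on 20, 9 and 13 fragments in J0 and on 3, 10 and 8 fragments in B0. CYP707A4 rose by 2.48 ± 0.23 in J12 vs J0 (limma, adjusted p = 1.87e-07) and by 2.14 ± 0.23 in B12 vs B0 (adjusted p = 6.88e-07). It was still higher at 24 h, by 1.13 ± 0.23 in J24 vs J0 (limma, adjusted p = 0.00466) and by 1.36 ± 0.23 in B24 vs B0 (adjusted p = 0.00031). Its call in J24 vs J0 was lost without replicate 2 of J24, at 0.98. In J24 vs J12 it fell by 1.35 ± 0.23 (limma, adjusted p = 0.00014), a call lost with median-ratio scaling, at -0.95.

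CYP707A7 (Seita.2G229900), with a mean of 7.36 FPKM, had the opposite course. CYP707A7 (Seita.2G229900) in JK3 had 8.22, 4.62 and 9.51 FPKM in J0, 0.76, 1.08 and 0.89 FPKM in J12, and 10.4, 5.59 and 10.8 FPKM in J24. CYP707A7 (Seita.2G229900) in B175 had 12.2, 12.4 and 11 FPKM in B0, 2.48, 2.13 and 1.22 FPKM in B12, and 13.9, 11.2 and 14.1 FPKM in B24. All 12 h libraries lay below all others, and the 0 and 24 h libraries of a variety overlapped. It fell by 2.10 ± 0.26 in J12 vs J0 (limma, adjusted p = 5.09e-06) and by 2.15 ± 0.26 in B12 vs B0 (adjusted p = 2.75e-06). It rose by 2.33 ± 0.26 in J24 vs J12 (limma, adjusted p = 2.21e-06) and by 2.28 ± 0.26 in B24 vs B12 (adjusted p = 2.64e-06). All 4 calls held in all alternatives tried. The genes of one enzyme class thus moved in opposite directions at 12 h.

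The other gene with the symbol CYP707A7, Seita.6G181300, had a mean of 3.35 FPKM. Seita.6G181300 in JK3 had 0.91, 6.58 and 1.30 FPKM in J0, 3.46, 1.80 and 4.53 FPKM in J12, and 5.02, 6.87 and 13.1 FPKM in J24. Seita.6G181300 in B175 had 0.23, 0.61 and 0.49 FPKM in B0, 1.27, 0.88 and 2.48 FPKM in B12, and 5.14, 0.70 and 4.84 FPKM in B24. Replicate 2 of J0 was high and replicate 2 of B24 was low, each apart from the other libraries of its group. Its 1 call was in B24 vs B0, 1.46 ± 0.53 (limma, adjusted p = 0.0438), and it was lost in 7 of 12 alternatives, with adjusted p up to 0.182. In J24 vs J0 the difference was 1.44 ± 0.53 (limma, adjusted p = 0.0727), and it was called without replicate 2 of J0. Despite the shared symbol, no dip at 12 h like that of Seita.2G229900 was seen: the differences were 0.35 ± 0.53 in J12 vs J0 (limma, adjusted p = 0.61) and 0.78 ± 0.53 in B12 vs B0 (adjusted p = 0.217).

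**Figure D4:**
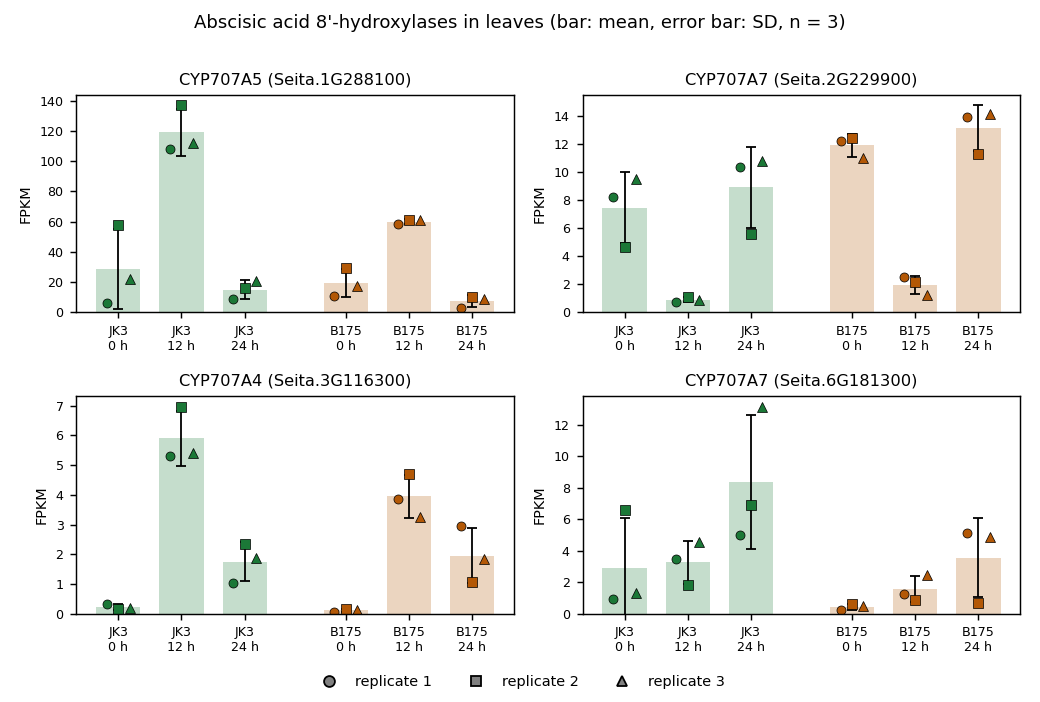
FPKM of the 4 ABA 8'-hydroxylase genes in each group, JK3 in green and B175 in orange; each panel has its own scale from 0, where error bars are cut. Bars are means, error bars SD of 3 libraries and points single libraries; CYP707A5 and CYP707A4 peaked at 12 h (119 and 5.90 FPKM in J12), and CYP707A7 (Seita.2G229900) was lowest there (0.911 FPKM).

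ZEP (Seita.7G116400) had the highest mean of the 13 genes, 163 FPKM. ZEP (Seita.7G116400) in JK3 had 113, 168 and 176 FPKM in J0, 60.9, 52.4 and 64.0 FPKM in J12, and 216, 216 and 162 FPKM in J24. ZEP (Seita.7G116400) in B175 had 221, 265 and 235 FPKM in B0, 71.3, 51.9 and 54.4 FPKM in B12, and 181, 388 and 229.5 FPKM in B24. The 12 h libraries of both varieties lay below all others. It fell by 1.33 ± 0.24 in J12 vs J0 (limma, adjusted p = 0.000208) and by 2.01 ± 0.24 in B12 vs B0 (adjusted p = 2.42e-06). It rose by 1.72 ± 0.24 in J24 vs J12 (limma, adjusted p = 2.24e-05) and by 2.09 ± 0.24 in B24 vs B12 (adjusted p = 2.85e-06). All 4 calls held in all alternatives tried. The summed chlorophyll a-b binding genes were also lower at 12 h. They lay between 1429 and 1515 FPKM in J12 and between 9475 and 10916 FPKM in J0. In B175 they lay between 3070 and 5735 FPKM in B12 and between 20238 and 26481 FPKM in B0. At 24 h they lay between 6019 and 7779 FPKM in J24 and between 7259 and 18530 FPKM in B24. These 24 h sums were below all 0 h libraries of their variety, where ZEP (Seita.7G116400) overlapped with 0 h. Their part in the result was not tested.

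The next genes of this class, Seita.8G007800 and Seita.7G306700, have no symbol and short models. Their lengths are 681 and 663 bases, against 2543 bases for Seita.7G116400. The last length is not a multiple of 3 and may not be coding sequence alone. Seita.8G007800 had 63.2, 37.4 and 66.3 FPKM in J0, 24.9, 23.2 and 22.3 FPKM in J12, and 32.7, 48.6 and 36.9 FPKM in J24. Seita.8G007800 in B175 had 94.1, 98 and 93.4 FPKM in B0, 39.5, 36.0 and 29.1 FPKM in B12, and 48.3, 73.8 and 44.8 FPKM in B24. B0 was above all other groups with no overlap. It fell by 1.17 ± 0.22 in J12 vs J0 (limma, adjusted p = 0.000316) and by 1.43 ± 0.22 in B12 vs B0 (adjusted p = 3.48e-05). In B24 vs B0 the difference was -0.80 ± 0.22 (limma, adjusted p = 0.0109), not past the fold limit, and it was called without replicate 2 of B24.

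Seita.7G306700 had 48.9, 32.4 and 45.4 FPKM in J0, 24.5, 21.7 and 24.1 FPKM in J12, and 31.2, 29.6 and 22.5 FPKM in J24. Seita.7G306700 in B175 had 91.6, 86.7 and 94.6 FPKM in B0, 32.9, 40.2 and 22.1 FPKM in B12, and 43.0, 78.8 and 34.9 FPKM in B24. Again B0 stood above all other groups. It fell by 1.53 ± 0.26 in B12 vs B0 (limma, adjusted p = 8.95e-05). In J12 vs J0 the difference was -0.80 ± 0.26 (limma, adjusted p = 0.0156), which was past the fold limit only with median-ratio scaling. In B24 vs B0 it was -0.87 ± 0.26 (limma, adjusted p = 0.0163), called with median-ratio scaling and without replicate 2 of B24. The near levels and lengths of Seita.8G007800 and Seita.7G306700 leave it uncertain how reads of similar copies were divided between them, and their sequences were not compared here.

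ZEP (Seita.7G116800) was low, with a mean of 1.22 FPKM. ZEP (Seita.7G116800) in JK3 had 0.93, 0.48 and 0.26 FPKM in J0, 2.94, 2.89 and 2.65 FPKM in J12, and 0.12, 0.42 and 0.20 FPKM in J24. ZEP (Seita.7G116800) in B175 had 0.49, 1.06 and 1.06 FPKM in B0, 1.20, 0.69 and 0.74 FPKM in B12, and 0.45, 4.77 and 0.60 FPKM in B24. The 3 libraries of J12 stood above the rest of JK3, and in B175 replicate 2 of B24 alone was high. It rose by 1.32 ± 0.37 in J12 vs J0 (limma, adjusted p = 0.00641) and fell by 1.62 ± 0.37 in J24 vs J12 (adjusted p = 0.00178). The first call was lost with median-ratio scaling, at 0.98. The remaining gene, Seita.9G402400, with a coding length of 351 bases, had between 0 and 18 fragments in a library, was above 0 in 9 of 18 libraries and was not called in any of the 11 comparisons.

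**Figure D5:**
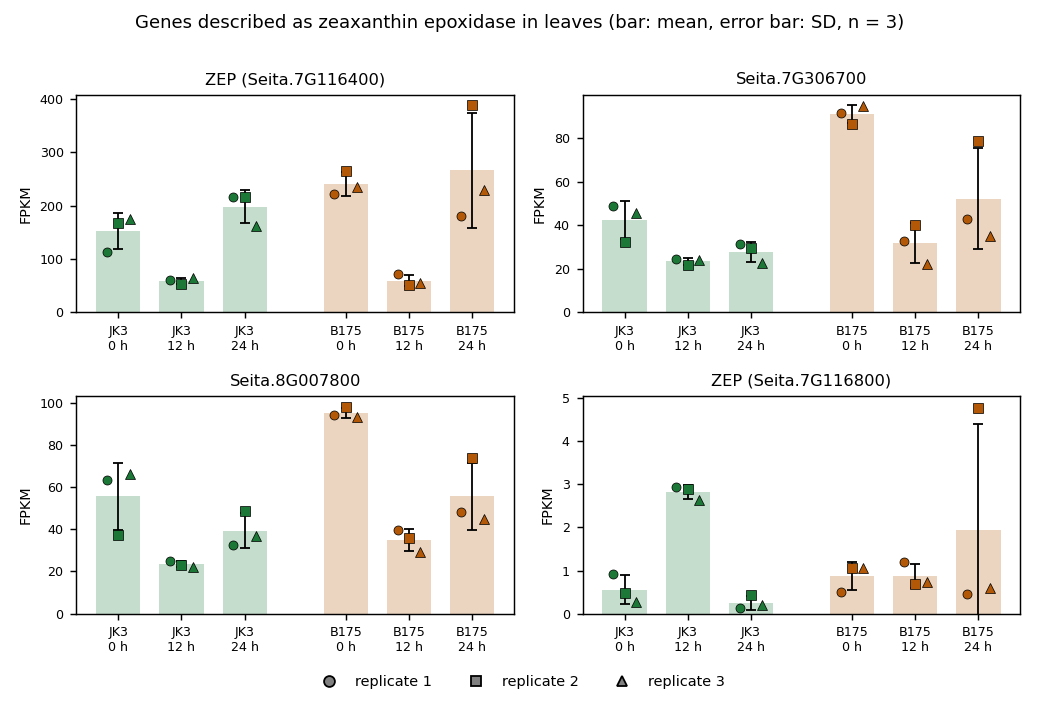
FPKM of 4 of the 5 genes described as ZEP in each group, JK3 in green and B175 in orange; each panel has its own scale from 0, where error bars are cut. Bars are means, error bars SD of 3 libraries and points single libraries; Seita.7G116400 was lowest at 12 h (59.1 FPKM in J12 and 59.2 FPKM in B12), and replicate 2 of B24 was the highest B24 library in all 4 panels.

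Before treatment, JK3 had more transcript of 3 NCED genes than B175 and less of the short ZEP gene Seita.7G306700. These 4 genes were called in J0 vs B0, 3 higher and 1 lower, against 12.8% of all tested genes (6.78% higher and 6.02% lower). NCED5 averaged 15.1 ± 1.83 FPKM in J0 and 1.85 ± 0.637 FPKM in B0 (SD, n = 3 each), a log2 fold change of 2.52 ± 0.27 (limma, adjusted p = 1.02e-05) that was called in all alternatives tried. VP14 averaged 9.62 ± 7.90 FPKM in J0 and 2.34 ± 0.168 FPKM in B0, a difference of 1.43 ± 0.44 (limma, adjusted p = 0.0243). NCED4 averaged 31.2 ± 22.4 FPKM in J0 and 9.61 ± 2.45 FPKM in B0, a difference of 1.41 ± 0.48 (limma, adjusted p = 0.0398). Every J0 library was above every B0 library for all 3 genes. Of all tested genes, 41.8% had no overlap between J0 and B0, in either direction. NCED1, the most abundant of the class at 0 h, averaged 141 ± 74.7 FPKM in J0 and 118 ± 22.1 FPKM in B0, with overlap and a difference of 0.15, interval from -0.56 to 0.85 (limma, adjusted p = 0.801).

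The count in J0 vs B0 rested in part on 1 library. Replicate 2 of J0 had the highest VP14 and NCED4 values of its group, and without it VP14 was at 0.86 (limma, adjusted p = 0.138), NCED4 at 0.88 (adjusted p = 0.211) and Seita.7G306700 at -0.93, so that NCED5 was the 1 gene called. The calls of VP14 and NCED4 were also lost without any 1 library of B0, where 2 genes were called. NCED4 was not called without replicate 3 of J0, with no filter on low values or with median-ratio scaling either (1.31 with the scaling, adjusted p = 0.0564 by limma). Seita.7G306700 averaged 42.2 ± 8.71 FPKM in J0 and 91.0 ± 4.02 FPKM in B0, a difference of -1.11 ± 0.26 with all libraries (limma, adjusted p = 0.00535). Seita.8G007800 (-0.81 ± 0.22, adjusted p = 0.0135) and ZEP Seita.7G116400 (-0.68 ± 0.24, adjusted p = 0.0479) had limma adjusted p values under 0.05 without passing the fold limit.

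At 12 and 24 h none of the 13 genes was called between the varieties. In J12 vs B12, 0 of the 13 genes were called by limma, 4 had an unadjusted p under 0.05, limma voom on fragments called 0, and 6.35% of all tested genes were called. In J24 vs B24, 0 were called by limma, 7 had an unadjusted p under 0.05, limma voom called 0, and 4.55% of all tested genes were called. Both shares use the fold limit and the adjusted p. The share of all tested genes with an unadjusted p under 0.05 was not taken, so the counts of 4 and 7 cannot be read as an excess. CYP707A5 averaged 119 ± 15.6 FPKM in J12 and 60.0 ± 1.56 FPKM in B12 with no overlap between libraries, as had 33.6% of all tested genes. Its difference was 0.97, with an interval from -0.26 to 2.2 (limma, adjusted p = 0.358). NCED4 averaged 129.5 ± 37.2 FPKM in J24 and 56.5 ± 30.6 FPKM in B24, with an overlap of 1 library, and its difference was 1.28, with an interval from 0.26 to 2.30 (limma, adjusted p = 0.124). Without replicate 3 of B24, NCED4 and Seita.7G306700 were called in J24 vs B24. The intervals include 2-fold differences, so these comparisons do not show that the levels were alike.

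Over all comparisons the 13 genes gave 43 calls, among 12 genes, and 30 of the calls held in every alternative tried. In the order of mean levels, ZEP (Seita.7G116400) at 163 FPKM stood above NCED1 at 72.4 FPKM, and Seita.8G007800, NCED4, Seita.7G306700 and CYP707A5 followed between 50.7 and 41.6 FPKM. The order of these 4 changed with the group, with CYP707A5 first in J12 and NCED4 first in J24. VP14, CYP707A7 (Seita.2G229900) and NCED5 lay between 10.8 and 7.24 FPKM, and the other 4 genes between 3.35 and 0.168 FPKM.

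The genes most like the leading gene of each class were searched among 19163 other genes with a mean of at least 1 FPKM, by Pearson correlation of log2(FPKM + 1) over the 18 libraries. These correlations describe libraries that share 6 groups. For ZEP (Seita.7G116400) they included AAH (r = 0.966) and SPS2 (r = 0.966), described as allantoate deiminase and solanesyl-diphosphate synthase. For CYP707A5 they were LYK5 (r = 0.957), the transcription factor gene BHLH130 (r = 0.949) and the lectin receptor kinase gene LECRKS5 (r = 0.946). For NCED1 they were Seita.3G151700 with no description (r = 0.947), ERDJ7 (r = 0.947) and RPPL1 (r = 0.940).

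From carotenoid synthesis and violaxanthin de-epoxidase, 20 genes were listed and 19 tested. The list was not limited to steps before ZEP. It also held VDE1 (violaxanthin de-epoxidase), LUT2 (lycopene epsilon cyclase) and CYP97C1 (carotene epsilon-monooxygenase), so its counts and medians do not describe the supply of ZEP alone. In J12 vs J0, 4 were called higher and 6 lower, and in B12 vs B0, 3 higher and 7 lower, with list medians of 0.11 and -0.35. Over all tested genes, 24% were called higher and 7.67% lower in J12 vs J0, and 28% higher and 9.81% lower in B12 vs B0. Phytoene synthase makes the first carotenoid, and its gene PSY2 fell most of the list: it had 1.27, 1.73 and 1.52 FPKM in J12, against 205, 39.6 and 126 FPKM in J0, and 7.04, 3.91 and 1.92 FPKM in B12, against 226, 248 and 231 FPKM in B0. The differences were -5.35 ± 0.53 in J12 vs J0 (limma, adjusted p = 4.5e-07) and -5.60 ± 0.53 in B12 vs B0 (adjusted p = 1.91e-07). PSY1 fell by 1.74 ± 0.30 and 2.06 ± 0.30 in the same comparisons (limma, adjusted p = 0.000157 and 2.19e-05). It fell less than the desaturase gene ZDS1 (Seita.7G197600), at -2.59 and -2.88, and the isomerase gene CRTISO (Seita.9G017300), at -2.90 and -3.45. Other genes with these symbols differed. CRTISO (Seita.3G401400) was called higher, at 2.91 and 2.55, and CRTISO (Seita.9G017500) lower, at -2.05 and -2.96. ZDS1 (Seita.2G077800) and CRTISO (Seita.8G158400) were not called in these comparisons. Seita.3G304800, described as zeta-carotene isomerase, was called higher, at 1.97 and 1.75. The phytoene synthase gene PSY3 was at -0.30 in J12 vs J0 (limma, adjusted p = 0.249) and at 0.72 in B12 vs B0 (adjusted p = 0.00668), neither past the fold limit, and it was called higher in B24 vs B0, at 1.23. Lycopene cyclase LCY1 was called lower at both times in both varieties, -1.10 ± 0.28 in J24 vs J0 and -1.74 ± 0.28 in B24 vs B0 (limma, adjusted p = 0.0141 and 0.000201).

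BETA-OHASE (Seita.9G559200), a beta-carotene hydroxylase of the step that makes zeaxanthin, was called higher at 12 h. It averaged 20.8 ± 5.89 FPKM in J0, 49.0 ± 2.14 FPKM in J12 and 32.1 ± 1.55 FPKM in J24, and 8.76 ± 1.07 FPKM in B0, 94.4 ± 29.2 FPKM in B12 and 46.0 ± 10.8 FPKM in B24 (SD, n = 3 each). It was called higher in J12 vs J0 (1.23 ± 0.22), B12 vs B0 (3.25 ± 0.22), B24 vs B0 (2.25 ± 0.22) and J0 vs B0 (1.13 ± 0.22), with limma adjusted p values from 4.23e-09 to 0.00138. Like NCED5 it had a called interaction, -2.03 ± 0.31 at 12 h and -1.61 ± 0.31 at 24 h (limma, adjusted p = 0.00133 and 0.0111). Both genes started higher in JK3. The other beta-carotene hydroxylase gene of the list, CA2 (Seita.7G209000), was called lower in B12 vs B0 (-2.52) and in J0 vs B0 (-1.58), and its interaction at 12 h was 1.56 (limma, adjusted p = 0.0402).

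The last step to ABA needs an aldehyde oxidase carrying a sulfurated molybdenum cofactor. Of 7 genes described as molybdenum cofactor sulfurase, 2 were called higher and 0 lower in J12 vs J0, and 1 higher and 1 lower in B12 vs B0. Of all tested genes, 24% and 28% were called higher and 7.67% and 9.81% lower. Those higher in J12 vs J0 were MCSU3 (Seita.6G234900), at 1.36 ± 0.30, and FLACCA (Seita.3G372000), at 1.20 ± 0.17. In B12 vs B0 these were at 0.93 and 0.95, not past the fold limit. MCSU3 (Seita.2G308200) was the gene called lower in B12 vs B0, at -1.21 ± 0.31. The gene higher in B12 vs B0 was ABA3 (Seita.2G308300), at 36.6 ± 2.10 FPKM in B12 and 8.29 ± 0.887 FPKM in B0, a difference of 2.02 ± 0.17 (limma, adjusted p = 4.03e-08). It was also higher in B24 vs B0, by 1.25 ± 0.17 (limma, adjusted p = 4.67e-05), and 0.84 ± 0.17 in J12 vs J0 (adjusted p = 0.000445), and its interaction at 12 h was -1.18 ± 0.23 (adjusted p = 0.00823).

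Of the carotenoid cleavage genes outside NCED, 4 of 8 listed were tested, and CCD (Seita.3G408300), whose product in other plants cuts carotenoids to volatile ionones, had 123, 109 and 128 FPKM in J12, against 658, 674 and 687 FPKM in J0. In B175 it had 122, 118 and 124 FPKM in B12, against 523, 603 and 539 FPKM in B0. It fell by 2.48 ± 0.16 in J12 vs J0 (limma, adjusted p = 4.28e-09) and by 2.18 ± 0.16 in B12 vs B0 (adjusted p = 1.39e-08). Over all tested genes, 7.67% and 9.81% were called lower in these comparisons. The other 3 tested genes of the list were not called in them. Of these, CCD (Seita.2G174500) and CCD7 (Seita.7G189300) averaged 0.131 and 0.630 FPKM, low levels where changes are understated.

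Of 7 ABA receptor genes, 1 was called in each variety at 12 h, beside 31.6% of all tested genes in J12 vs J0 and 37.8% in B12 vs B0. PYL5 (Seita.3G076200) had 226, 229 and 214 FPKM in J12, against 19.2, 39.8 and 22.7 FPKM in J0, and 208, 225 and 244 FPKM in B12, against 24.7, 38.3 and 25.1 FPKM in B0. It rose by 3.05 ± 0.25 in J12 vs J0 (limma, adjusted p = 6.5e-08) and by 2.93 ± 0.25 in B12 vs B0 (adjusted p = 7.63e-08), and it averaged 19.6 FPKM in J24 and 18.5 FPKM in B24. Like CYP707A5, this receptor gene was highest at 12 h in both varieties. PYL4 (Seita.9G437300) averaged 22.7 ± 3.88 FPKM in J0 and 57.8 ± 5.89 FPKM in B0 and was called lower in J0 vs B0, at -1.32 ± 0.17 (limma, adjusted p = 4.87e-05). Its interaction was 1.24 at 12 h and 1.33 at 24 h (limma, adjusted p = 0.00706 and 0.00739).

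Dehydrins and other late embryogenesis abundant (LEA) proteins protect drying cells, and many of their genes respond to ABA. Of 20 listed genes 18 were tested. In J24 vs J0, 9 were called higher and 0 lower, and in B24 vs B0, 15 higher and 1 lower, beside 5.36% and 10.2% of all tested genes called higher. At 12 h, 4 were called higher and 1 lower in J12 vs J0, and 10 higher and 1 lower in B12 vs B0, beside 24% and 28% of all tested genes called higher. In J0 vs B0, 8 were called higher and 0 lower, beside 6.78% of all tested genes called higher, in the comparison in which NCED5, VP14 and NCED4 were higher in J0. DHN1 (Seita.8G115400) had 835, 720.2 and 865 FPKM in J0, against 7.15, 24.4 and 6.95 FPKM in B0, a difference of 6.09 ± 0.45 (limma, adjusted p = 1.88e-07). Replicate 2 of B24, which had the highest ZEP values of its group, had the lowest value of this DHN1 gene there, 2223 FPKM, against 6801 and 6129 FPKM in replicates 1 and 3. The relation between these transcripts and ABA was not tested, since the hormone was not measured.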

How the data were processed

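RNA of leaves from 18 samples was sequenced, and the authors deposited 1 table of FPKM for 29108 genes with Phytozome v2.2 identifiers, symbols and descriptions. The submitters' processing notes name fastp, HISAT2, HTSeq, R 3.2.0 and DESeq2 without roles, and a mouse genome build beside millet identifiers. How strand and multiply mapped reads were treated is not given in the sources used here. FPKM are scaled by the library total only, so a few very abundant genes can shift all others.

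Columns were matched to samples by variety, time and replicate in their names. Whole fragments were recovered from the steps between FPKM values. For each gene the largest step was taken that put its values within 0.02 fragments of a whole number. That 100% of values met this limit follows from the choice of step and is no separate check. The recovered fragments came to 34738627 to 38798886 per library. They cover counting error only. Of the gene lengths, 93.3% were multiples of 3, so lengths are given as coding length. No 2 libraries were identical.

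Genes with a mean of at least 0.1 FPKM (23824) were fitted with limma 3.58.1 in R 4.3.3 on log2(FPKM + 1), with 6 group means and a trend of variance with level. Tests are two-sided, with Benjamini-Hochberg adjustment over all genes of a comparison. The limit of 1 on the log2 scale follows the study, which names no test. An exact permutation test of 3 against 3 libraries cannot go below 0.1 and was not used. Interactions were called on adjusted p alone. Alternatives were a pseudocount of 0.1, no filter, a mean of at least 1 FPKM, median-ratio scaling, a replicate block, limma voom on fragments and leaving out each library. Figures were drawn with matplotlib 3.10.9, and tables were handled in Python 3.11.15 with pandas 2.3.3, scipy 1.17.1 and numpy 2.4.6.

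Members called at least once with a mean of at least 1 FPKM are given for every library. Likeness was taken for the most abundant gene of each class, with 1 of the like genes not reported here, and other genes come from lists matched on descriptions. The members and lists were chosen with earlier results of these data known.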

Additional observations from a re-analysis of the deposited data

Results flagged for a closer look

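For 1 gene, NCED5 (Seita.3G391000), the change from 0 h differed between the varieties by a test of the difference itself, at both later times. Its change from 0 h to 12 h in JK3 minus that in B175 was -2.34 on the log2 scale. Its change from 0 h to 24 h in JK3 minus that in B175 was -1.81. All 3 libraries of J12 lay below all 3 of J0, and the ranges of B12 and B0 overlapped. At 24 h the ranges of J24 and J0 overlapped, and all 3 libraries of B24 lay above all 3 of B0. No cause was tested.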

How the results depend on the processing

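No call of the 13 genes changed direction in any alternative. Of 43 calls, 43 held with a pseudocount of 0.1 and with a mean of at least 1 FPKM, 42 with the replicate block, 41 with limma voom on fragments, 40 with no filter and 38 with median-ratio scaling. Leaving out 1 library kept 237 of 270 calls and lost 33. The count of genes called in B24 vs B12 was 4 and was 7 with median-ratio scaling, with 4 genes shared. Leaving out each library in turn, the counts ran from 8 to 9 in J12 vs J0, 2 to 5 in J24 vs J0, 6 to 7 in J24 vs J12, 7 to 9 in B12 vs B0, 5 to 8 in B24 vs B0, 3 to 5 in B24 vs B12, 1 to 4 in J0 vs B0, 0 to 0 in J12 vs B12 and 0 to 2 in J24 vs B24. The interaction counts ran from 1 to 1 at 12 h and 0 to 1 at 24 h. The cause of these changes was not tested.

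Samples of different groups share replicate numbers, and nothing states that a number marks a shared plant, batch or day. The correlations of same-numbered deviations averaged between -0.06 and 0.20, and in no comparison were all 3 above 0.1. With the replicate block, 8 genes were called in J12 vs J0, 3 in J24 vs J0, 7 in J24 vs J12, 8 in B12 vs B0, 7 in B24 vs B0, 4 in B24 vs B12 and 4 in J0 vs B0, with 1 in each interaction. NCED4 in B12 vs B0 was lost (adjusted p = 0.0518 by limma) and CYP707A5 in B24 vs B0 was added. The main limits are 3 libraries per group, the confounding of time with time of day, and low fragment counts for CYP707A4 at 0 h and for Seita.9G402400.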

Other observations

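Aldehyde oxidase genes outside the annotation phrase were looked at after their descriptions had been seen. Of 8 genes described as indole-3-acetaldehyde oxidase, probable aldehyde oxidase or putative aldehyde oxidase, 7 were tested. Aldehyde oxidases act on several plant aldehydes, and the descriptions do not say whether any of these makes ABA. In J12 vs J0, 4 were called higher and 0 lower, and in B12 vs B0, 3 higher and 0 lower, beside 24% and 28% of all tested genes called higher.

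Seita.2G104900, a putative aldehyde oxidase-like gene, had 95, 100.1 and 78.6 FPKM in J12, against 0.547, 0.565 and 0.541 FPKM in J0, and 97.2, 92.3 and 111 FPKM in B12, against 0.494, 0.298 and 0.408 FPKM in B0. The difference was 5.89 ± 0.17 in J12 vs J0 (limma, adjusted p = 6.6e-13) and 6.17 ± 0.17 in B12 vs B0 (adjusted p = 2.56e-13), with means of 0.80 FPKM in J24 and 0.895 FPKM in B24. All 12 h libraries were far above all others. The most abundant gene of the list, AO2 (Seita.9G061200), averaged 188 ± 17.4 FPKM in J0, against 84.7 ± 12 FPKM in B0, and was called higher in J0 vs B0, by 1.15 ± 0.15 (limma, adjusted p = 7.8e-05). At 12 h AO2 was at -0.996 in J12 vs J0 (limma, adjusted p = 5.00e-05) and at -0.47 in B12 vs B0 (adjusted p = 0.0145), neither past the fold limit.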
